A study of Mus musculus with 10 samples.

Results

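De novo lipogenesis genes were followed in epididymal white adipose tissue (eWAT), the fat depot beside the epididymis, of 10 male mice. The genes were *Acly*, *Acaca*, *Acacb*, *Fasn*, *Elovl6*, *Scd1*, *Scd2*, *Me1*, *Srebf1* and *Mlxipl*. They were chosen by name, and every non-control probe that carries 1 of these names was taken, which gave 18 probes for 10 genes, out of 55681 probes with 34797 gene names in all. The mice were C57BL/6JOlaHsd wildtypes (C57BL/6J in the strain field of the labels) and were 9 weeks old at the start. All of them received a low fat diet for 3 weeks and then a high-fat diet for 12 weeks at 29°C. All of them were then given desferrioxamine (DFO), an iron-binding drug, at 100 mg/kg of body weight every day for 5 days, and lost access to food for 2 h before they were killed. Control mice were not analysed here, so no effect of DFO, of the diet or of the temperature can be read from these values.

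Each mouse was measured on 1 two-colour microarray. Its own RNA carried the dye Cy5, and a pool made from all the mice of the wider study, controls included, carried Cy3 on every array. A log2 ratio is the log2 of the Cy5 over the Cy3 signal of 1 probe, after background correction and normalization within the array, so that a difference of 1 between mice is a doubling. The dyes were not swapped, so the ratio of a probe also holds its dye bias, and no ratio was tested against 0. Ratios of 1 probe can be compared between mice, and levels of different probes were not compared.

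De novo lipogenesis is the making of fatty acids from acetyl-CoA, much of it derived from glucose, and in fat tissue it takes place mainly in the adipocytes. ATP citrate lyase (*Acly*) releases acetyl-CoA from citrate, acetyl-CoA carboxylase (*Acaca* and *Acacb*) turns it into malonyl-CoA, and fatty acid synthase (*Fasn*) builds palmitate from it with NADPH, part of which comes from malic enzyme (*Me1*). Palmitate is then lengthened by *Elovl6* and desaturated by stearoyl-CoA desaturase (*Scd1* and *Scd2*). The transcription factors SREBP-1 (gene *Srebf1*) and ChREBP (gene *Mlxipl*) switch on many of these enzymes, the first in response to insulin and the second in response to sugars.

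Mice 4, 5, 6 and 7 stood apart from the other 6 on the rest of the genes. The first principal component of 27700 expressed probes, with the lipogenic genes left out, held 75.1% of the variance, and these 4 mice lay on 1 side of a gap of 0.514 of its range. All 11 adipocyte markers that were expressed (of 12 listed) were above background on all 10 arrays. Their mean log2 ratio lay between -2.11 and -1.22 in mice 4 to 7 and between -0.15 and 0.62 in the others. The adipokine gene *Cfd* ranged from -4.69 to 1.45 and *Adipoq* from -2.78 to 0.81, while *Cd36* and *Lpl*, which are not limited to adipocytes, kept within -0.35 to 0.15 and -0.20 to 0.42. The mean of 11 macrophage markers ran the other way, from 0.86 to 1.16 in mice 4 to 7 and from -1.39 to -0.12 in the others. The means of 7 mesothelium markers (-1.43 to 0.36), 5 blood markers (-1.73 to 0.49) and 4 brown fat markers (-0.64 to 0.44) were also lowest in mice 4 to 7. The lymph node markers ranged from -0.56 to 0.33 and the fibroblast and progenitor markers from -0.40 to 0.04. Of 8 epididymis markers, only *Lcn12* was expressed. In whole tissue fewer adipocytes and less of an RNA per adipocyte cannot be told apart. Beyond the fits with marker means given below, the part of these cell types in the lipogenic values was not tested. Counts and correlations that use all 10 mice are given with the values for the 6 other mice where these differ.

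The probes are 60 bases long, and their positions are those of the array's annotation on the mouse build mm9. All 18 probes were expressed, meaning that the scanner software marked Cy5 as well above background on 5 or more arrays, 17 were so in both channels, and 16 were so on all 10 arrays. 3 sets of probes are shown because the values below turn on which sequence was measured. *Scd1* (A_52_P682382, chr19:44469387-44469446, minus strand) and *Scd2* (A_51_P129464, chr19:44381024-44381083, plus strand) are close paralogs, but their probes share no run longer than 6 bases. The last 30 bases of each were as follows.
Scd1: atctcaacagtgtgaattaagtgtccatag
Scd2: taagtcctgcacatttttgtagtaactgtc
Of the 4 *Acaca* probes, A_55_P2019058 (chr11:84215093-84215152) and A_55_P2084706 (chr11:84215094-84215153) start 1 base apart and have 55 bases in common, so they count as 1 measurement. Capitals mark the shared part of their last 30 bases.
A_55_P2019058: TGTTGAAATAAACCTCCACATTTGTAgaag
A_55_P2084706: GTTGAAATAAACCTCCACATTTGTAaaaaa
The brighter *Mlxipl* probe, A_55_P2119957 (chr5:135613705-135613764), shares no run of 16 bases with a probe of another gene. The other, A_55_P2045158 (chr5:135614195-135614252), lies 490 bases downstream and shares such runs with probes of 4 other genes. They cover 21 of its bases, which are in capitals in bases 23 to 52 below and resemble the B1 repeat that is scattered through the mouse genome.
A_55_P2119957: gcgtatgtggattttataaaaaagaaaatg
A_55_P2045158: gcatggtgaTGCACACCTTTAATCCCAGTA

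The probes of 1 gene did not always give the same picture. Over the 10 mice the 3 *Me1* probes had r of 0.943 to 0.977 with each other. In the 6 other mice, A_55_P2171413 had r of only 0.267 and 0.303 with the other *Me1* probes, which kept 0.899 between them. The 2 *Acacb* probes had r = 0.912 over 10 mice and 0.946 over 6. The *Acaca* probes had r of 0.813 to 0.953 over 10 mice and 0.707 to 0.949 over 6, leaving out the overlapping pair (0.990 and 0.953). The 2 *Acly* probes did not follow each other (r = -0.125, and -0.065 over 6 mice): A_55_P2025954, at chr11:100337674-100337733, varied between mice, whereas A_55_P2082914, 27844 bases away at chr11:100365518-100365577, stayed between -0.24 and -0.05. The latter was dim, with a median Cy5 signal of 75.9 over background against 9209.6 for the former. The 2 *Mlxipl* probes also parted (r = 0.499, and -0.383 over 6 mice). A_55_P2119957 fell to between -1.61 and -0.89 in mice 4 to 7, and the probe with the repeat-like stretch lay between -0.13 and 0.21 in the same mice. Each gene is described below by its brightest probe, which for *Mlxipl* is A_55_P2119957.

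**Figure D1:**
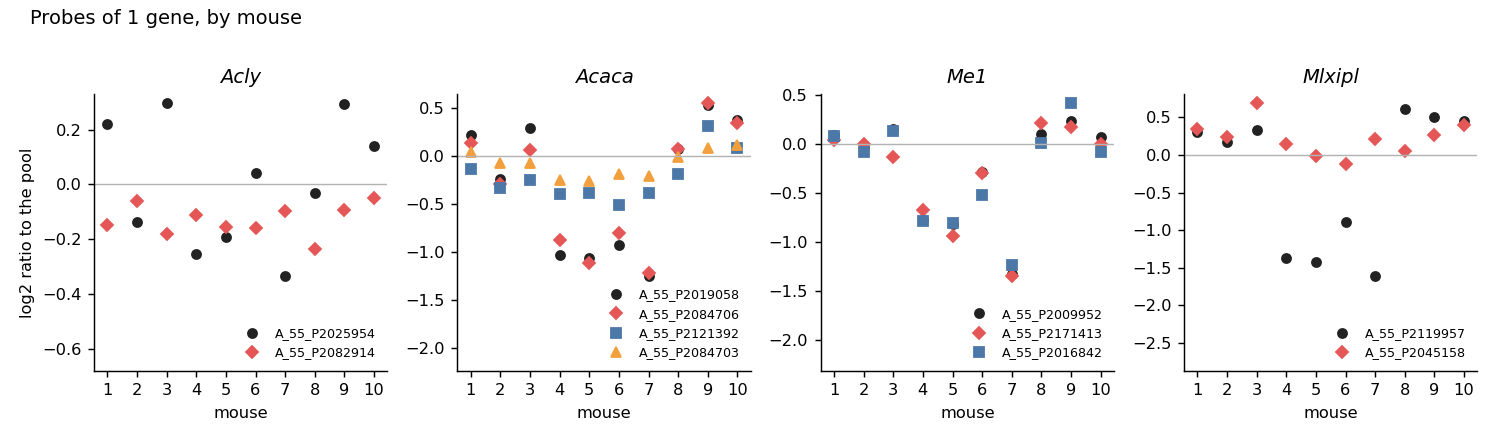
Log2 ratio to the pool (y axis) of each probe of *Acly*, *Acaca*, *Me1* and *Mlxipl* in mice 1 to 10 (x axis), 1 symbol per probe, with a different y scale in each panel. The 3 *Me1* probes are all lowest in mice 4 to 7, whereas of the 2 *Mlxipl* probes A_55_P2119957 is low in those mice and A_55_P2045158 lies between -0.13 and 0.21.

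*Acly*, which makes the acetyl-CoA for the pathway, varied least. Its log2 ratio was -0.34 at the lowest (mouse 7), 0.01 at the median and 0.30 at the highest (mouse 3), a range of 1.55-fold (mean 0.0043 ± 0.23, SD, n = 10). The 4 mice that stood apart overlapped with the others, as mouse 6 (0.04) was above mice 2 and 8.

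The 2 carboxylases varied more. *Acaca*, the cytosolic form that feeds fatty acid synthesis, ranged from -1.25 (mouse 7) over a median of -0.08 to 0.54 (mouse 9). *Acacb*, the form at the mitochondrial surface whose malonyl-CoA restrains fatty acid oxidation, ranged from -1.50 (mouse 7) over a median of -0.14 to 0.53 (mouse 8). Both were low in mice 4 to 7, at -0.92 or less for *Acaca* and -0.89 or less for *Acacb*, and no other mouse was below -0.24 and -0.23. Among the other 6 mice their brightest probes were ordered differently, with mouse 3 lowest in *Acacb* (-0.23) and above mice 1, 2 and 8 in *Acaca* (0.29). This place of mouse 3 held for the brightest *Acaca* probe only. In A_55_P2084706, which overlaps it, mouse 3 (0.06) was below mice 1 (0.14) and 8 (0.07). In A_55_P2121392 and A_55_P2084703 mouse 3 was below mice 1 and 8 as well.

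*Fasn*, the synthase itself, had a lowest log2 ratio of -1.26 (mouse 7), a median of -0.02 and a highest of 0.70 (mouse 9), a 3.88-fold range (mean -0.16 ± 0.64). Mice 4, 5 and 7 were lowest, at -0.90, -0.79 and -1.26. Mouse 6, at -0.09, was above mouse 8 (-0.23), so mice 4 to 7 and the other 6 overlapped for *Fasn*.

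*Elovl6*, the elongase that takes palmitate to stearate, ranged from -1.15 (mouse 7) over a median of -0.44 to -0.09 (mouse 3). Here too mouse 6 (-0.47) lay beside mice 8 (-0.45) and 10 (-0.43) rather than with mice 4, 5 and 7, which were at -0.95 or less.

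Of the 10 genes, the desaturases had the widest ranges. *Scd1* was lowest in mouse 7 (-2.92), had a median of -0.62 and was highest in mouse 9 (0.87), which is a 13.8-fold range (mean -0.85 ± 1.48). Its Cy5 signal over background went from 9411 to 95488 and was not saturated. Mice 4 to 7 were all at -2.02 or less, and mouse 2, the next lowest, was at -1.09. *Scd2* ranged from -1.82 (mouse 7) over -0.14 to 0.67 (mouse 3), 5.62-fold. The *Scd2* value of mouse 2 was -0.05, well within those of the other 6 mice.

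The brightest *Me1* probe kept within a narrow range in the 6 other mice, from -0.03 to 0.23. It was lower in mice 4 to 7, with -0.29 in mouse 6 and -1.33 in mouse 7. Its median was 0.02. In the 6 other mice A_55_P2171413 ranged from -0.13 to 0.21 and A_55_P2016842 from -0.08 to 0.42.

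The 2 regulators differed in how sharply they parted the mice. *Mlxipl* had a lowest value of -1.61 (mouse 7), a median of 0.24 and a highest of 0.61 (mouse 8), and between mouse 6 (-0.89) and mouse 2 (0.17) no mouse was found. *Srebf1* ranged from -0.69 (mouse 7) over 0.01 to 0.67 (mouse 9), and mouse 2 (-0.25) was close to mice 4 and 6 (-0.36 and -0.35). Mouse 7, which also had the lowest adipocyte marker mean (-2.11), was the lowest mouse for all 10 genes. The share of all expressed probes that were lowest in mouse 7 is not given here, so this count has no background to be set against. Mice 4 to 7 were the 4 lowest for 8 of 10 genes, all but *Acly* and *Fasn*, and the same held for 21.3% of the 27718 expressed probes.

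**Figure D2:**
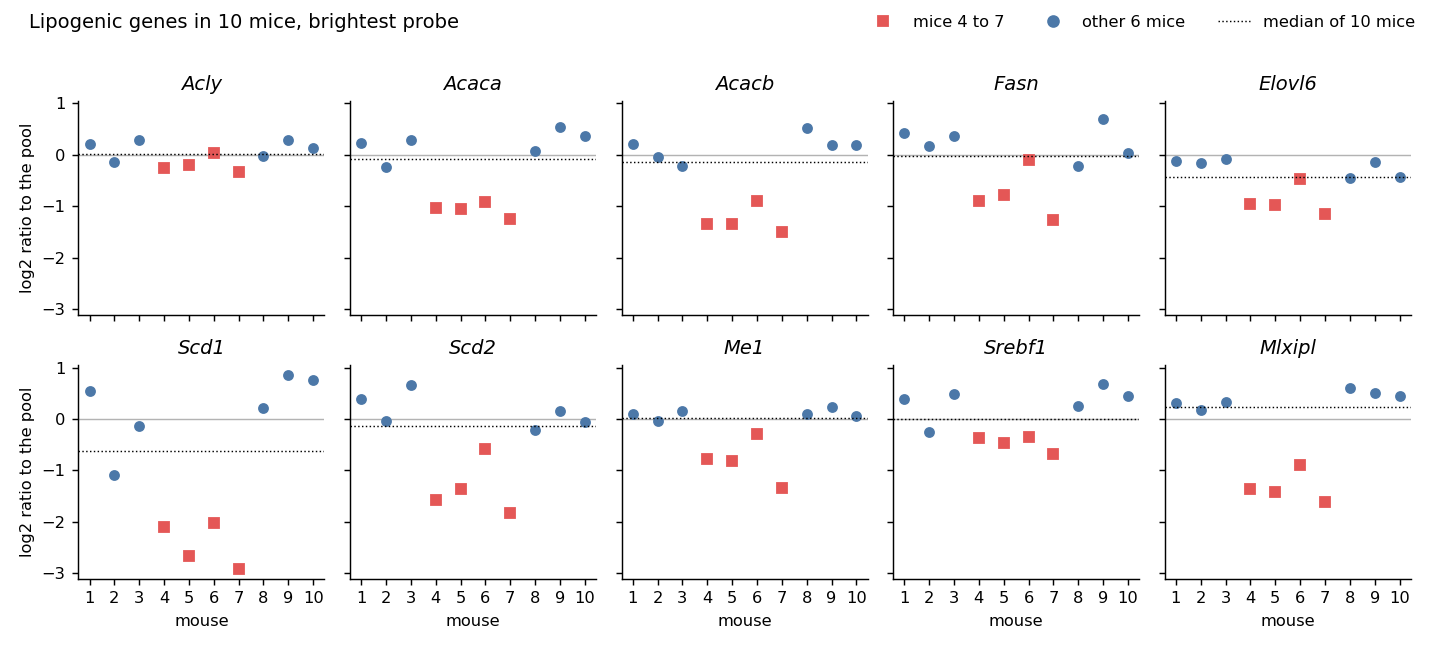
Log2 ratio to the pool (y axis) of the brightest probe of each gene in mice 1 to 10 (x axis). Red squares are mice 4 to 7, blue circles the other 6 mice, and the dotted line is the median. The 4 red squares are the lowest points in every panel except those of *Acly* and *Fasn*, and *Scd1* spans the widest range, from -2.92 to 0.87.

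The spread between mice was set beside that of the Cy3 channel, in which 1 pool was measured 10 times. The Cy5 spread also holds the separate dissection, extraction and labelling of each mouse, so a larger Cy5 variance does not by itself show a difference in biology. The log2 Cy5 signal of *Scd1* had an SD of 1.35 over the arrays against 0.13 for Cy3. The values were 0.91 against 0.05 for *Mlxipl*, 0.67 against 0.07 for *Fasn* and 0.17 against 0.09 for *Acly*. Paired variances were compared by the Pitman-Morgan test, and p-values were adjusted (Benjamini-Hochberg) over 25049 probes. The Cy5 variance was the larger for 15 of 17 lipogenic probes, which stand for 9 of the 10 genes and count the overlapping *Acaca* pair as 2. The same was called for 59.8% of all probes tested, whose median SDs were 0.20 and 0.08. The 2 probes that did not pass were both of *Acly* (adjusted p = 0.0943 for A_55_P2025954 and 0.578 for A_55_P2082914). Over the 6 other mice alone, 10 of 17 probes passed, against 14.2% of all probes. Without normalization between arrays 10 passed, against 18.7% of all. The arrays lay on 5 slides of 2, and the slide made no call in limma's F test for the 18 lipogenic probes (1 at an unadjusted p under 0.05) or for any probe (0%, with 1136 of 27718 at an unadjusted p under 0.05).

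**Figure D3:**
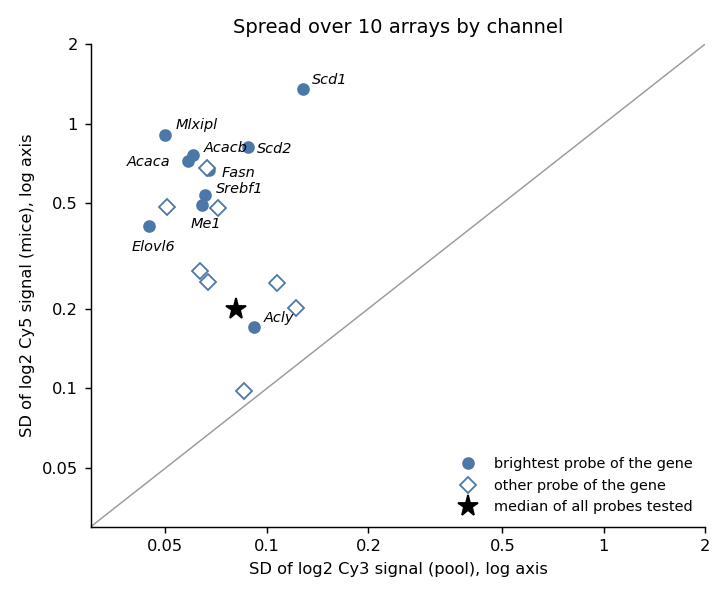
SD over 10 arrays of the log2 Cy5 signal of the mice (y axis) against the SD of the log2 Cy3 signal of the common pool (x axis), both on log axes, for the 18 lipogenic probes. The line marks equal SDs and the star the median of all probes tested (0.08 and 0.20). All points lie above the line, and the closest to it is 1 of the *Acly* probes (SDs 0.10 and 0.09).

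The lipogenic genes rose and fell with *Fasn* over the 10 mice. In a limma fit of every expressed probe on the log2 ratio of *Fasn*, all 9 other genes had a positive slope past an adjusted p of 0.05, against 20.9% of 27717 probes with a positive and 16.9% with a negative slope. The median r with *Fasn* was 0.876 for the 9 genes and 0.044 for all probes, and over the 6 other mice 0.519 and -0.045. The closest was *Elovl6* (slope 0.61 ± 0.06, SE, adjusted p = 0.00103), then *Scd2* (1.29 ± 0.13, adjusted p = 0.0011) and *Me1* (0.79 ± 0.09, adjusted p = 0.00133). *Scd1* had the steepest slope, 1.93 ± 0.38, and *Acly* the shallowest, 0.33 ± 0.06. 4 lipogenic probes, of *Elovl6*, *Scd2* and *Me1* (2 probes), were among the 100 probes with the highest r with *Fasn* out of 19716 with a symbol known to RefSeq, *Elovl6* at rank 8.

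Over the 6 other mice, 0 of 9 genes were called by limma (1, *Elovl6*, at an unadjusted p of 0.0393), and 0 of 27739 probes were (405 at an unadjusted p under 0.05). With fewer mice the standard errors were larger, so a lost call does not show a lost relation. The slopes over these 6 mice were 0.42 ± 0.17 for *Elovl6*, 0.39 ± 0.20 for *Acly*, 0.46 ± 0.34 for *Srebf1*, 0.65 ± 0.31 for *Scd2* and 0.43 ± 0.28 for *Acaca*. They were 0.56 ± 0.78 for *Scd1* and 0.16 ± 0.16 for *Me1*, and those of *Acacb* (-0.37 ± 0.29) and *Mlxipl* (-0.13 ± 0.22) were below 0. All of these slopes but that of *Acly* were smaller than over 10 mice, where that of *Acaca* was 0.95 and that of *Scd2* 1.29. With the adipocyte marker mean as a second covariate 0 of 9 genes were called, and 4 were below an unadjusted p of 0.05: *Elovl6* (slope 0.56 ± 0.12, p = 0.000642), *Scd2* (0.86 ± 0.23, p = 0.00282), *Me1* (0.39 ± 0.14, p = 0.0183) and *Acly* (0.30 ± 0.13, p = 0.0334). The adjusted p was 1 for each, and 1091 of all probes were below an unadjusted p of 0.05. The slopes of *Acaca* (0.09 ± 0.16), *Acacb* (-0.22 ± 0.17), *Scd1* (-0.09 ± 0.39), *Srebf1* (0.12 ± 0.20) and *Mlxipl* (-0.05 ± 0.13) in that fit had 95% intervals that included 0. The macrophage marker mean as the covariate gave 0 calls and the same 4 genes below an unadjusted p of 0.05. In that fit 1826 of all probes were below it.

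Single pairs were also set side by side. Over 10 mice, Pearson's r of *Fasn* with the 7 genes whose values did not fall into separate clusters was 0.814 to 0.950 (two-sided permutation test, p = 0.00024 to 0.00904), and Spearman's rho was 0.636 to 0.939 (permutation p = 0.00022 to 0.0558). Without the 2 mice farthest from the *Fasn* median, which were mice 4 and 7, r was 0.621 to 0.881. Among all 10 mice, mice 4 to 7 were the 4 lowest for all of these 7 genes but *Acly*. The r over 10 mice therefore partly restates their distance from the others. In the 6 other mice r of *Fasn* with the 7 genes was -0.465 (*Acacb*) to 0.706 (*Acly*), with an exact permutation p of 0.133 or more. The values of *Elovl6* and *Mlxipl* fell into clusters, so their r with *Fasn* over all mice was not tested by permutation and enters only the median and the ranking above. Over the 6 other mice, *Fasn* and *Elovl6* had r = 0.822 (exact permutation test, p = 0.0472) and rho = 0.771 (exact p = 0.103), *Fasn* and *Scd2* had r = 0.638 (exact p = 0.183), and *Fasn* and *Acacb* had r = -0.465 (exact p = 0.322). For *Scd1* and *Scd2* r was 0.857 over 10 mice (permutation p = 0.0035) and 0.029 over the 6 (exact permutation p = 0.983). For *Acaca* and *Acacb* it was 0.927 over 10 mice (permutation p = 0.00242) and 0.082 over the 6 (exact permutation p = 0.917). In all 11 pairs were computed, and with 6 mice the lowest exact p possible is 0.00278.

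**Figure D4:**
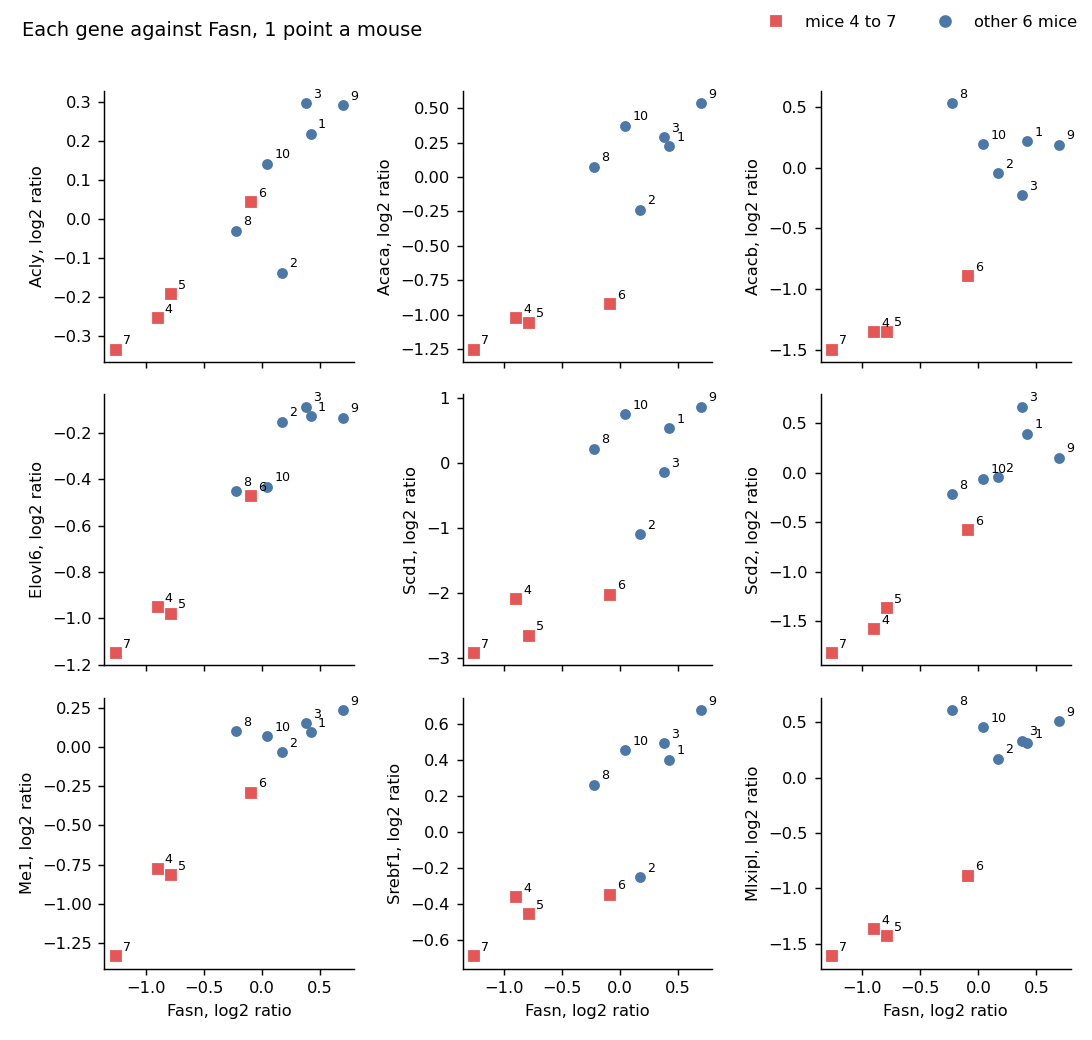
Log2 ratio of each of the 9 other genes (y axis, own scale per panel) against that of *Fasn* (x axis), 1 point per mouse with its number. Red squares are mice 4 to 7 and blue circles the other 6. Mouse 6 lies with mice 8 and 10 for *Elovl6* and near them for *Acly*, but with mice 4, 5 and 7 for *Acaca* and *Mlxipl*.

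Both regulators gave the same count as *Fasn*. With *Srebf1* as the covariate 9 of 9 genes were called in limma (23.3% of probes with a positive slope), with the lowest adjusted p for *Acaca* (slope 1.38 ± 0.12, adjusted p = 7.22e-05) and *Scd1* (2.94 ± 0.23, adjusted p = 7.22e-05). With *Mlxipl* 9 of 9 were called (27.4% of probes), with the lowest adjusted p for *Acacb* (0.83 ± 0.05, adjusted p = 4.75e-08). Over the 6 other mice *Srebf1* kept 1 call, *Acaca*. Of 27739 probes, 38 were called with a positive and 305 with a negative slope. At an unadjusted p under 0.05 were 3 of 9 genes and 4114 of all probes. *Mlxipl* kept 0 calls, and 0 of 27738 probes were called. In that fit 2 of 9 genes and 3118 of all probes were at an unadjusted p under 0.05. These 3 fits share their mice and genes and are not independent of each other.

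The stretches upstream of the transcription starts were read from RefSeq (build GRCm38.p6), which listed 12 starts for 8 of the 10 genes, all but *Scd1* and *Scd2*. Each window of 250 bases before the start was searched on both strands. The letters CACGTG, the E-box form to which both ChREBP and SREBP-1 can bind, were found in 1 of 12 windows, that of an *Mlxipl* start, against 6.02% of 32851 windows. TCACCCCAC, the core of a sterol regulatory element, was found in 0 of 12 (0.496% of all windows). CCAAT, to which the factor NF-Y binds, was found in 6 of 12, of *Acacb*, *Fasn*, *Me1*, *Mlxipl* and *Srebf1* (33.8%), and GGGCGG, a letter run that Sp1 binds, in 5 of 12, of *Acly*, *Me1*, *Mlxipl* and *Srebf1* (32.7%). The *Fasn* window (chr11:120824548-120824797, minus strand) has 3 CCAAT matches on either strand, which begin 90, 62 and 59 bases before the start, the last pair overlapping. The *Mlxipl* window (chr5:135089640-135089889, plus strand) has its CACGTG 98 bases before the start. They are shown with the CCAAT matches of *Fasn* and the CACGTG of *Mlxipl* in capitals. A match shows only that the letters are there, and no match only that they are not in this window.
Fasn: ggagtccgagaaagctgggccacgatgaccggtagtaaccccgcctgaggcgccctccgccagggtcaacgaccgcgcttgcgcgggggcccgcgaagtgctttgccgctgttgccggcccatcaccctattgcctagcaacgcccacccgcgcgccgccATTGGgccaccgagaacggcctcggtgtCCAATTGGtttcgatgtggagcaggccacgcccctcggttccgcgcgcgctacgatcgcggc
Mlxipl: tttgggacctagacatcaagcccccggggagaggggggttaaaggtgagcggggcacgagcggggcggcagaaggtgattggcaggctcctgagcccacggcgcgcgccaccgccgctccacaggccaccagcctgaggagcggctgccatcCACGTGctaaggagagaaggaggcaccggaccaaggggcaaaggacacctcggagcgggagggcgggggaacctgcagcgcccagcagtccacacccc

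The lipogenic genes fell with the adipocyte markers to unequal degrees. When every probe was fitted on the mean of the adipocyte markers, a fit added after the values had been seen, 10 of 10 genes were called by limma against 27.4% of 27706 probes with a positive slope. *Scd1* changed more than the marker mean itself, with a slope of 1.30 (95% CI 1.07 to 1.52). *Mlxipl* followed at 0.83 (0.75 to 0.91, adjusted p = 1.49e-09), then *Scd2* at 0.72 (0.53 to 0.92), *Acacb* at 0.69 (0.58 to 0.79) and *Acaca* at 0.62 (0.52 to 0.71). *Fasn* (0.51, 0.34 to 0.69), *Me1* (0.46), *Srebf1* (0.41) and *Elovl6* (0.32) were shallower. *Acly* changed least, with a slope of 0.17 (0.08 to 0.26, adjusted p = 0.00336). The interval of *Scd1* overlapped with none of the other 9, and that of *Acly* with that of *Elovl6* (0.20 to 0.44) alone. Differences between slopes were not tested. For scale, the slope of single markers on the mean of the others went from -0.15 (*Cd36*) and 0.11 (*Lpl*) to 2.60 (*Cfd*). Other probes of the same genes could give other slopes. The other *Mlxipl* probe had a slope of 0.10 (adjusted p = 0.145), the other *Acly* probe of -0.0027 (adjusted p = 0.945), the other *Acacb* probe of 0.15 (0.08 to 0.22), and the 2 dim *Acaca* probes of 0.17 (A_55_P2121392) and 0.12 (A_55_P2084703), so the order of the genes holds for the brightest probes only. Without mice 4 to 7 only *Scd1* was called (slope 2.38 ± 0.40, limma adjusted p = 0.0201), against 1.05% of 27728 probes with a positive and 2.34% with a negative slope. At an unadjusted p under 0.05 were 4799 probes, and 4 of 10 genes: *Scd1*, *Srebf1* (0.93 ± 0.27), *Acaca* (0.79 ± 0.24) and *Mlxipl* (0.51 ± 0.17). In those mice *Fasn* had a slope of 0.10 ± 0.41, *Scd2* of -0.24 ± 0.41 and *Elovl6* of -0.27 ± 0.23.

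**Figure D5:**
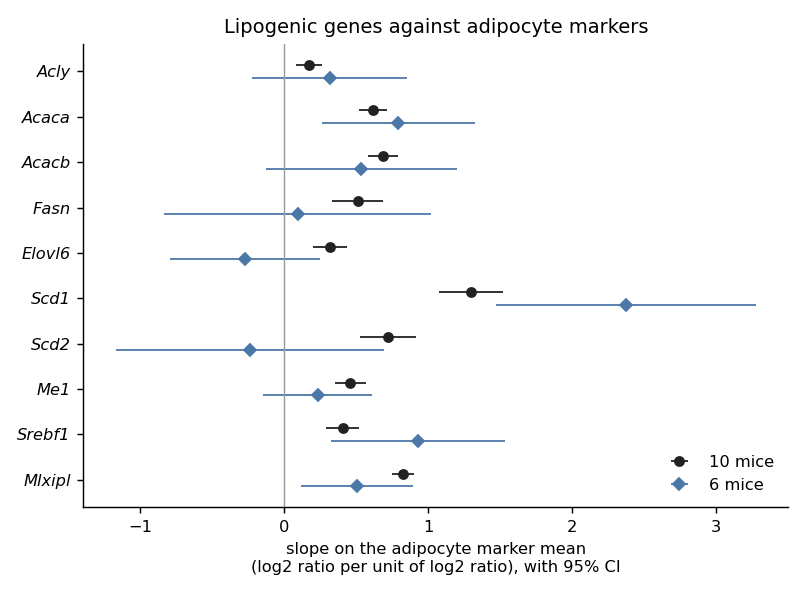
Slope of each gene's log2 ratio on the mean log2 ratio of the adipocyte markers (x axis), with 95% confidence intervals from limma, over 10 mice (black circles) and over the 6 mice other than 4 to 7 (blue diamonds). Over 10 mice all intervals lie above 0, from 0.17 for *Acly* to 1.30 for *Scd1*. Over 6 mice those of *Acaca*, *Scd1*, *Srebf1* and *Mlxipl* do.

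Further genes of fatty acid synthesis and its control were taken from a list of 54, of which 51 were on the array and 48 were expressed. In the fit on *Fasn*, 25 of the 48 were called with a positive and 7 with a negative slope, against 20.9% and 16.9% of all probes. The median r was 0.712 (-0.027 over the 6 other mice). With median centring of the arrays in place of loess the split was 15 to 1, and over all probes 2738 to 401 in place of 5805 to 4690. With slide as a block it was 18 to 2, and over all probes 2544 to 1729. The 8 with the lowest adjusted p all had positive slopes and lowest values in mouse 7. *Acsl1*, which activates long fatty acids, ranged from -1.50 to 0.45 (slope 1.02 ± 0.11, adjusted p = 0.0011). *Pnpla3*, a lipid droplet protein, ranged from -1.53 to 0.67. *Slc25a1*, the carrier that brings citrate out of the mitochondria for *Acly*, ranged from -0.74 to 0.44, and *Acss2*, which makes acetyl-CoA from acetate, from -1.38 to 0.27. *Hk2*, a hexokinase, went from -1.13 to 0.93. *Fads3* (-1.76 to 0.42), a protein of the desaturase family, *Ptplb* (-1.46 to 0.37), a dehydratase of the elongation cycle, and *Prkaa2* (-0.76 to 0.34), a catalytic subunit of the kinase AMPK that inhibits the carboxylases, complete the 8. The 4 genes least related to *Fasn* were *Usf1* (r = 0.113), *Trib3* (r = -0.124), *Nr1h2* (r = -0.133) and *Prkaa1* (r = -0.169), all regulators of lipid metabolism and none of them called. Over the 6 other mice, 0 of 48 genes were called by limma and 0 were at an unadjusted p under 0.05. With the adipocyte marker mean as a covariate 0 were called and 5 were at an unadjusted p under 0.05.

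The genes whose pattern was most like that of *Fasn* were found by r over the 10 mice among the 19716 probes. They were *Dct*, the melanin enzyme dopachrome tautomerase (r = 0.979), *Acsl1* by another probe than above (0.978), *Mest*, an imprinted gene that is expressed in growing fat tissue (0.977), *Aldh1a7*, an aldehyde dehydrogenase (0.976), and *Atp5l*, a subunit of the mitochondrial ATP synthase (0.974). All of them also had an r over 0.88 in the 6 other mice, with 0.948 for *Dct* and 0.942 for *Mest*. *Mest* ranged from -1.77 to 0.11 (slope 1.13 ± 0.08). The most opposite were *Hlx* (r = -0.974), *Mis12* (-0.960) and *Senp8* (-0.954). *Hlx* ranged from -0.21 to 0.51. They were picked for this likeness, so their r is a description.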

How the data were processed

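RNA of eWAT from 10 mice of 1 group was measured on 10 two-colour Agilent arrays (8 per slide format, 2 used on each of 5 slides, 1 scan day). The intensity values deposited by the authors are the brightness of each spot and its background in Cy5 and Cy3, read with Agilent Feature Extraction 10.7.3.1 per the labels and not normalized. The same deposited files hold a log10 ratio of Cy5 over Cy3 that the software had background-subtracted and dye-normalized. The authors also deposited normalized values, whose range and spread show log2 values (every column tracked log2 Cy5 of its array, r 0.993 to 0.999, with all medians at 8.52). Their normalization is not given in the sources used here, and they served as an alternative only.

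Mean signals were corrected with normexp (offset 50), normalized by loess within arrays and, for the channel variances, by Aquantile between arrays (limma 3.58.1, R 4.3.3). Control and outlier-flagged spots were left out and spots of 1 probe averaged. Of 55681 probes 27811 were expressed, 27718 of them with a value on every array, and 25049 of 25137 expressed in both channels entered the variance test. No spot was saturated. Median Cy5 signals were 53.4 to 77.3 over backgrounds of 32 to 37, and this margin and the number of arrays limit the precision. Adjusted p-values are Benjamini-Hochberg over all probes tested, with a threshold of 0.05. They rest on the variation between arrays of 1 group of mice, 1 array per mouse, which also holds dissection, extraction and labelling.

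The genes, the pathway and marker lists and the tests were chosen with earlier results of these data known. Genes named beside the 10 were the 8 pathway genes with the lowest adjusted p and the 4 with the smallest r with *Fasn*, and the 5 most and 3 least like *Fasn*. Mice were taken to form clusters where a gap that left 3 or more mice on either side reached 0.4 of the range. Permutation tests used 100000 resamples over 10 mice and all permutations over 6 (Python 3.11.15, scipy 1.17.1). The limma slope and slide tests and the Pitman-Morgan test were checked on simulated data with independent noise for each probe. The permutation tests were not checked in this way. Alternatives were other background corrections, normalizations, filters, deposited ratios and values, slide as a block, marker covariates, the 6 mice and each mouse left out. Not every alternative was run for every result.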

Additional observations from a re-analysis of the deposited data

Results flagged for a closer look

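No lipogenic probe had a mouse far from the others: the largest gap between an extreme mouse and its neighbour was 0.367 of the range (*Mlxipl* A_55_P2045158, mouse 3), below Dixon's critical value for 10 mice. Of 26 measures looked at, 1 passed it. The mean of the epididymis markers, which rested on *Lcn12* alone, was 0.40 in mouse 3 against 0.07 in the next mouse, a gap of 0.548 of the range. Chance passes about 1 in 20 such groups. Mouse 3 was also the highest mouse for *Acly*, *Scd2* and *Elovl6*, and whether this is related to *Lcn12* was not tested.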

How the results depend on the processing

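The counts of genes called with *Fasn*, *Srebf1*, *Mlxipl* and the adipocyte markers over 10 mice were within 1.5 times of those reported under every setting of scaling, filter, source of the ratio and slide that was run, and, for *Fasn* (9 of 9) and the adipocyte markers (10 of 10), with any 1 mouse left out. Without mice 4 to 7, 0 genes with *Fasn*, 1 with *Srebf1*, 0 with *Mlxipl* and 1 with the adipocyte markers were called, and 0 of the 48 pathway genes, with larger standard errors than over 10 mice. With the adipocyte or the macrophage marker mean as a covariate, 0 lipogenic and 0 pathway genes were called with *Fasn*. The count of pathway genes called with *Fasn*, 32, became 16 with median centring and 20 with slide as a block. In the fit on *Fasn*, *Acly* was not called with median centring or from the deposited normalized values. With median centring the expressed probes had a median log2 ratio of 0.32 in place of 0.01, and the mean log2 ratio moved with it by more than 1 SD for *Acly* (to 0.63), *Elovl6* (to -0.05) and *Me1* (to 0.41). The channel variance count was between 10 and 16 over all settings, of 16 to 18 probes tested. No paired analysis was possible because the samples form 1 group. Dim probes, such as A_55_P2082914 of *Acly* and A_55_P2084703 of *Acaca*, lie near background, which limits what they can show.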

Other observations

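The 7 pathway genes that ran against *Fasn*, named here after their values were seen, were *Srebf2*, *Acot11*, *Fads1*, *Mbtps2*, *Elovl1*, *Pgd* and *Usf2*. They were 7 of 48, against 16.9% of all probes with a negative slope, so the count is not particular to the pathway. With median centring 1 was called with a negative slope, and with slide as a block 2 were. *Srebf2*, the SREBP gene known mainly for control of sterol synthesis, went from -1.43 in mouse 9 to 1.25 in mouse 4 (slope on *Fasn* -1.28 ± 0.30, limma adjusted p = 0.00755), while *Srebf1* went from -0.69 in mouse 7 to 0.67 in mouse 9. *Pgd*, an NADPH-producing enzyme of the pentose phosphate pathway, ranged from -0.22 to 0.66 and was highest in mouse 4, whereas *Me1* was low there (-0.77). *G6pdx*, the first enzyme of that pathway, had a positive slope that was not called (0.23 ± 0.09, adjusted p = 0.0551). *Fads1*, which makes long polyunsaturated fatty acids, ranged from -0.49 to 0.41 and was highest in mouse 6.

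*Thrsp* and *Slc2a4*, named for the same reason, were among the pathway genes that rose with *Fasn* over the 10 mice and had ranges near that of *Scd1*. *Thrsp*, a lipogenic nuclear protein, went from -2.39 (mouse 4) to 1.01 (mouse 9), and *Slc2a4*, the insulin-responsive glucose carrier, from -2.65 (mouse 7) to 0.91 (mouse 9). Their slopes on the adipocyte marker mean were 1.20 ± 0.05 and 1.34 ± 0.03.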
